A study of Danio rerio with 10 samples.

Results

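The 10 genes described here, sycp1, sycp3, hormad1, dmc1, spo11, mlh3, mnd1, psmc3ip, hsf2bp and brip1, encode zebrafish proteins of the meiotic chromosome axis, the synaptonemal complex and meiotic recombination. They were picked by symbol from a list of meiosis genes, and the list was chosen with earlier results of these data known. Each symbol matched 1 Ensembl gene, which makes 10 of the 32574 genes measured. RNA was sequenced in 10 libraries of zebrafish (Danio rerio): sperm, oocyte, the 1-, 4-, 16-, 64-, 128-, 256- and 1000-cell embryo, and sphere, the blastula that follows it. Each stage had 1 library, so no difference between 2 stages has a replicate check. Strain, genotype, any treatment, age, the number of animals pooled and the way sperm and oocytes were collected are not given in the labels, and these limit what each library can stand for. Levels are in RPKM, that is, reads relative to gene length and library size. Every interval of a level, a fold or a ratio of levels is an exact 95% interval on the reads behind the value, which covers counting error only. Intervals of slopes come from the error around the fitted line.

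In meiosis, SPO11 cuts DNA on purpose, and the breaks are repaired against the homologous chromosome. Recombinases such as DMC1 coat the broken ends, the HOP2-MND1 pair (psmc3ip and mnd1 in fish) helps them invade the homologue, and a few of the joint molecules become crossovers, for which a nuclease with an MLH3 subunit is known. Meanwhile HORMA-domain and SYCP3 proteins form an axis along each chromosome, and SYCP1 zips paired axes together into the synaptonemal complex. In the fish testis these stages run throughout adult life, whereas an oocyte passes through them early and then grows for a long time before it is shed.

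Sequencing depth lay between 37762530 reads (1-cell) and 113972795 reads (4-cell), with 39600592 for sperm and 54662927 for the oocyte, so that 3 reads in a gene of 1 kilobase were worth 0.079 RPKM at 1-cell and 0.026 RPKM at 4-cell. The 1-cell and 4-cell libraries stood apart from the later embryos. Their median ratio scaling factors were 0.374 and 0.659, that of the oocyte was 0.652, and those of the other 7 libraries were 1.12 to 1.49. The labelled cell types were checked against marker lists. Of the spermatogonia markers, 2 of 6 were matched, and they went opposite ways. piwil2 had 64.6 RPKM in sperm and 3.23 RPKM in the oocyte, and sall4 had 3.35 RPKM in sperm and 24.4 RPKM in the oocyte. Of the markers of spermatids and sperm tails, 7 of 13 were matched, and they summed to 814 RPKM in sperm and 0.925 RPKM in the oocyte, where tekt2, rsph9 and tssk6 were listed at 0. Of the oocyte markers, 8 of 10 were matched, and they summed to 20.1 RPKM in sperm and 1027 RPKM in the oocyte. In the oocyte 926 RPKM of this sum came from btg4 alone. The median of the 8 markers was 1.76 RPKM in sperm and 12.9 RPKM in the oocyte. Follicle cell markers, 4 of 8 matched, summed to 5.19 RPKM in sperm and 7.74 RPKM in the oocyte, where fshr and hsd17b1 were listed at 0. Of these values, 0.325 RPKM in sperm and 7.73 RPKM in the oocyte came from gdf9, which stands on the oocyte list too, and the other 3 markers summed to 4.86 RPKM in sperm and 0.0122 RPKM in the oocyte. Testis somatic markers were present in the sperm library as well: 10 of 13 were matched, all 10 of them at 1 RPKM or more, and they summed to 1492 RPKM in sperm and 28.1 RPKM in the oocyte, where insl3 was listed at 0. In the oocyte 25.9 RPKM of this sum came from cyp17a1 alone. The median of the 10 markers was 105 RPKM in sperm and 0.0511 RPKM in the oocyte. How much of the meiotic signal in the library labelled sperm came from sperm and how much from other testis cells was not tested.

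The 10 meiosis genes together reached 1894 RPKM in sperm, against 42.5 RPKM in the oocyte and 28.8 to 79.0 RPKM in the embryos. All 10 were at 1 RPKM or more in sperm. In the other libraries the number at that level was 5 in the oocyte, 3 at 1-cell, 4 at 4-cell, 7 at 16-cell and 64-cell, 8 at 128-cell, 256-cell and 1000-cell, and 7 at sphere. Of all 32574 genes, 16450 reached 1 RPKM in the sperm library and 10005 did so in the oocyte library. The 1-cell library had 8479 such genes, and the later embryos had between 10291 (4-cell) and 13551 (sphere). Sperm thus had the most and 1-cell the fewest among all genes too, so this course was not particular to the members. Fewer cells of a type and less RNA per cell cannot be told apart in such bulk libraries.

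**Figure D1:**
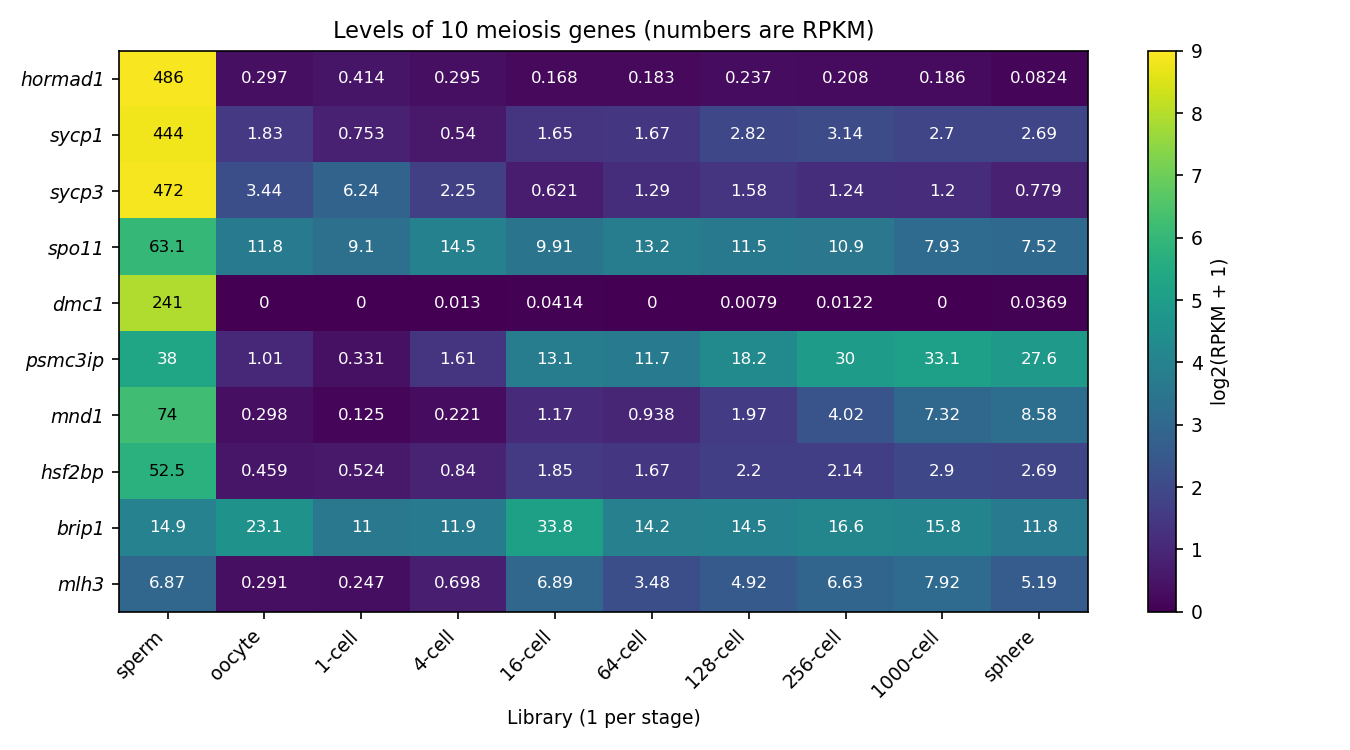
Heat map of the 10 meiosis genes (rows) in the 10 libraries (columns), coloured by log2(RPKM + 1) with the RPKM printed in each cell; each stage is 1 library. The sperm column is the brightest for hormad1, sycp1, sycp3 and dmc1, whereas brip1 is brightest at 16-cell and psmc3ip and mnd1 brighten again in the later embryos.

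The axis and synaptonemal complex genes hormad1, sycp3 and sycp1 were the most abundant members in sperm, and none of them passed 6.24 RPKM in any other library. hormad1 (ENSDARG00000040254), whose HORMA-domain product sits on unpaired chromosome axes, had 486 RPKM in sperm and 0.297 RPKM in the oocyte. In the embryos it had 0.414 RPKM at 1-cell and 0.295 at 4-cell, then 0.168 at 16-cell, 0.183 at 64-cell and 0.237 at 128-cell, and finally 0.208 at 256-cell and 0.186 at 1000-cell, before 0.0824 at sphere. Sperm was 1639-fold above the oocyte (1126 to 2487, from 32056 and 27 reads), and in sperm 99.6% of all genes lay below hormad1, against 38.1% at sphere. The 9 libraries other than sperm gave overlapping intervals at every step of their order. The ends of that order did not overlap: 1-cell had 0.270 to 0.606 RPKM and sphere 0.0411 to 0.147 RPKM.

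sycp1 (ENSDARG00000003904), the zip of the synaptonemal complex, had 444 RPKM in sperm, 1.83 in the oocyte, 0.753 at 1-cell and 0.540 at 4-cell, then 1.65 at 16-cell, 1.67 at 64-cell and 2.82 at 128-cell, and finally 3.14 at 256-cell and 2.70 at 1000-cell, before 2.69 at sphere. Sperm was 243-fold above the oocyte (218 to 272). After sperm, the 4 libraries from 128-cell to sphere came next, with overlapping intervals between neighbours in the order. The oocyte, 64-cell and 16-cell followed, and finally 1-cell and 4-cell.

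sycp3 (ENSDARG00000013438), a component of the axis itself, had 472 RPKM in sperm, 3.44 in the oocyte, 6.24 at 1-cell and 2.25 at 4-cell, then 0.621 at 16-cell, 1.29 at 64-cell and 1.58 at 128-cell, and finally 1.24 at 256-cell and 1.20 at 1000-cell, before 0.779 at sphere. Sperm was 137-fold above the oocyte (121 to 156). Outside sperm the 1-cell library, among the lowest for sycp1, was the highest for sycp3, and 16-cell and sphere were the lowest. At 1-cell 85.6% of all genes lay below sycp3, and in the oocyte 79.3%, against 56.4% at sphere. The 1-cell library was 1.81-fold above the oocyte (1.53 to 2.16), and the 16-cell library was 3.63-fold below the 4-cell library (2.73 to 4.89).

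The level of sycp1 over that of sycp3 shows the change of balance. It was 0.940 in sperm (0.926 to 0.955), 0.532 in the oocyte and 0.121 at 1-cell (0.0943 to 0.153). From 16-cell on sycp1 was the higher of the pair, at 2.65 times sycp3 at 16-cell (2.0 to 3.56) and 3.45 times at sphere (2.74 to 4.41). Since both values come from the same library, this ratio does not move with the scaling between libraries.

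Break formation and strand exchange genes fell into contrasting kinds. spo11 (ENSDARG00000013837), the enzyme that makes the breaks, had the most even RPKM as deposited of the 10 genes outside sperm, with 1.94-fold between its highest and lowest library. It had 63.1 RPKM in sperm, 11.8 in the oocyte, 9.10 at 1-cell and 14.5 at 4-cell, then 9.91 at 16-cell, 13.2 at 64-cell and 11.5 at 128-cell, and finally 10.9 at 256-cell and 7.93 at 1000-cell, before 7.52 at sphere. Sperm was 5.33-fold above the oocyte (4.99 to 5.71), a small difference beside those of the axis genes. In the oocyte 87.5% of all genes lay below spo11, and at sphere 76.3%. The evenness of spo11 depended on the scaling of the libraries. Its log2(RPKM + 1) at sphere minus that at 1-cell was -0.25 as deposited and -1.92 after median ratio scaling.

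dmc1 (ENSDARG00000055883), the meiosis-specific recombinase, had no more than 4 reads in any library other than sperm. It had 241 RPKM in sperm, from 12906 reads. The oocyte, 1-cell, 64-cell and 1000-cell libraries had 0 reads, and the rest had 1 to 4 reads each: 0.0130 RPKM at 4-cell and 0.0414 at 16-cell, with 0.00790 at 128-cell, 0.0122 at 256-cell and 0.0369 in the sphere library. With the oocyte set at a floor of 3 reads, sperm was 5938-fold higher, and the lower end of the exact 95% interval was 4829-fold.

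psmc3ip (ENSDARG00000037892), which encodes HOP2, was high in sperm and nearly as high in the late embryos. It had 38.0 RPKM in sperm, 1.01 in the oocyte, 0.331 at 1-cell and 1.61 at 4-cell, then 13.1 at 16-cell, 11.7 at 64-cell and 18.2 at 128-cell, and finally 30.0 at 256-cell and 33.1 at 1000-cell, before 27.6 at sphere. Sperm was 37.7-fold above the oocyte (28.6 to 50.5) but 1.15-fold above the 1000-cell library. In the 1000-cell embryo 90.1% of all genes lay below psmc3ip, against 66.3% at 1-cell.

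mnd1 (ENSDARG00000074451), whose product pairs with HOP2, had 74.0 RPKM in sperm, 0.298 in the oocyte, 0.125 at 1-cell and 0.221 at 4-cell, then 1.17 at 16-cell, 0.938 at 64-cell and 1.97 at 128-cell, and finally 4.02 at 256-cell and 7.32 at 1000-cell, before 8.58 at sphere. Sperm was 249-fold above the oocyte (175 to 366) and 8.63-fold above sphere, the next library in its order. Each library from 128-cell to sphere lay above the stage before it with intervals that did not overlap.

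The level of mnd1 over that of psmc3ip was 1.95 in sperm (1.84 to 2.07), and psmc3ip was the higher of the pair in the other 9 libraries. The ratio was 0.295 in the oocyte (0.183 to 0.468), 0.378 at 1-cell (0.141 to 0.978), 0.138 at 4-cell, 0.0890 at 16-cell and 0.0801 at 64-cell (0.0660 to 0.0966). It then went up through 0.108 at 128-cell, 0.134 at 256-cell and 0.221 at 1000-cell to 0.311 at sphere (0.290 to 0.333). The more abundant partner in sperm was thus the scarcer one in the oocyte and embryos.

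**Figure D2:**
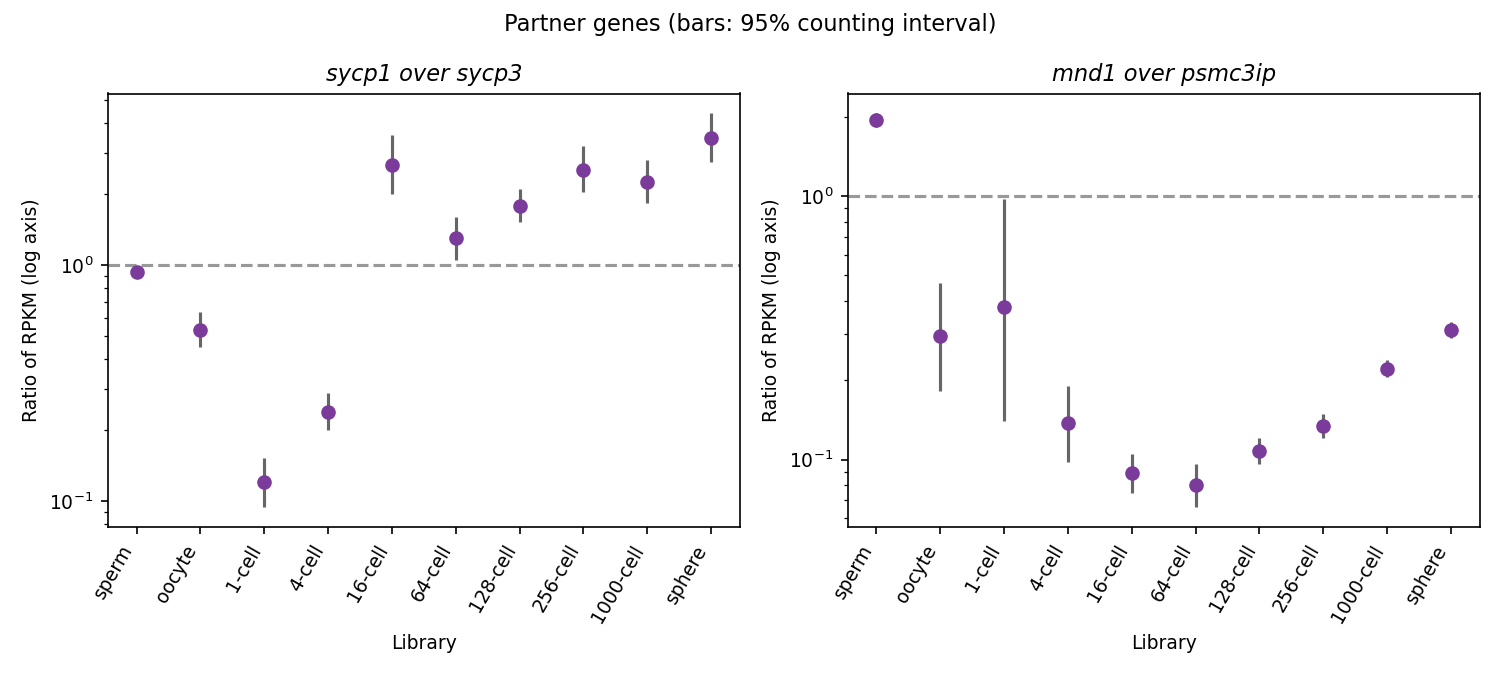
Level of sycp1 over sycp3 (left) and of mnd1 over psmc3ip (right) in the 10 libraries, on log axes with 95% counting intervals; the dashed line is equality. The sycp1 ratio is lowest at 1-cell, 0.121, and highest at sphere, 3.45, and the mnd1 ratio is above 1 in sperm alone.

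hsf2bp (ENSDARG00000035080), known in mammals as a meiotic recombination factor, had 52.5 RPKM in sperm, 0.459 in the oocyte, 0.524 at 1-cell and 0.840 at 4-cell, then 1.85 at 16-cell, 1.67 at 64-cell and 2.2 at 128-cell, and finally 2.14 at 256-cell and 2.90 at 1000-cell, before 2.69 at sphere. Sperm was 114-fold above the oocyte (83.1 to 162) and 18.1-fold above the 1000-cell library. Its 6 libraries from 16-cell to sphere had overlapping intervals at each step of their order. The ends of that order, 1000-cell (2.59 to 3.24) and 64-cell (1.44 to 1.94), did not overlap.

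brip1 (ENSDARG00000074410), a DNA helicase of the Fanconi anaemia pathway that works in repair outside meiosis too, was the exception among the members. It had 14.9 RPKM in sperm, 23.1 in the oocyte, 11.05 at 1-cell and 11.9 at 4-cell, then 33.8 at 16-cell, 14.2 at 64-cell and 14.5 at 128-cell, and finally 16.6 at 256-cell and 15.8 at 1000-cell, before 11.8 at sphere. Sperm was 1.54-fold below the oocyte (1.47 to 1.62). The 16-cell library was 2.85-fold above the 4-cell library (2.75 to 2.94), and the 64-cell library was 2.37-fold below the 16-cell library (2.29 to 2.46), so that the 16-cell value stood above both of its neighbours. After median ratio scaling, log2(RPKM + 1) of brip1 at 16-cell minus 4-cell was 0.48, in place of 1.44. At 64-cell minus 16-cell it was -0.96, in place of -1.19. Against the oocyte the 16-cell library then differed by -0.45, in place of 0.53.

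**Figure D3:**
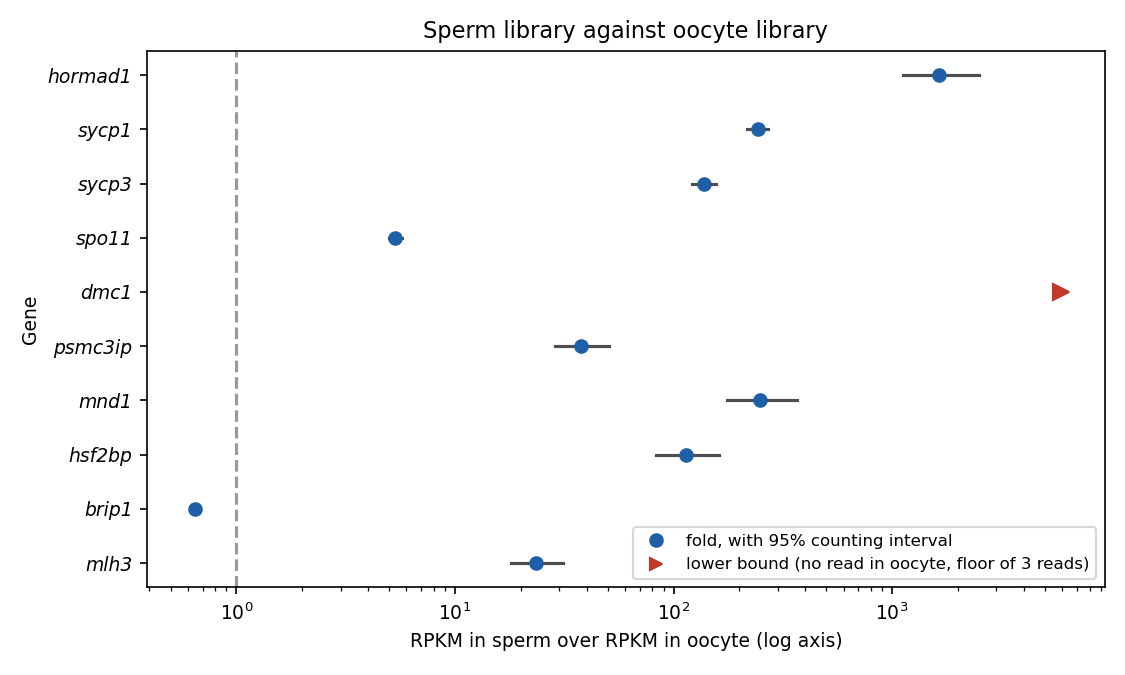
RPKM in sperm over RPKM in the oocyte for each gene on a log axis, 1 library each; bars are 95% counting intervals, the triangle is a lower bound and the dashed line is equality. The points run between 0.648 for brip1 and 5938 for dmc1 at that floor, with spo11 at 5.33 next to brip1.

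mlh3 (ENSDARG00000056334), a subunit of the crossover nuclease, was the lowest member in sperm, at a level that several embryonic libraries reached. It had 6.87 RPKM in sperm, 0.291 in the oocyte, 0.247 at 1-cell and 0.698 at 4-cell, then 6.89 at 16-cell, 3.48 at 64-cell and 4.92 at 128-cell, and finally 6.63 at 256-cell and 7.92 at 1000-cell, before 5.19 at sphere. Sperm was 23.6-fold above the oocyte (18.1 to 31.3), and its interval overlapped that of the 16-cell library.

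For the size of differences between stages across all genes, a gene with at least 1 RPKM in either library was counted as higher or lower when its log2(RPKM + 1) differed by 2 or more. A gene under 1 RPKM in 1 of the libraries entered through the other alone and could not be counted as lower in that other library. This holds for members, listed genes and all genes alike. In sperm against the oocyte, 9 of the 10 members were higher and 0 lower, the exception being brip1 at -0.59. Of all 17364 genes measured there, 31.5% were higher and 9.08% lower. The members hormad1, dmc1, mlh3, mnd1 and hsf2bp were under 1 RPKM in the oocyte, entered through sperm alone and could not be counted as lower. The members' median difference was 5.52 on the log2(RPKM + 1) scale, against 1.22 for all genes. On this scale, with its pseudocount of 1, the difference was 8.55 for hormad1 and 7.92 for dmc1, followed by sycp1 at 7.30, sycp3 at 6.74, mnd1 at 5.85, hsf2bp at 5.20, psmc3ip at 4.28, mlh3 at 2.61 and spo11 at 2.32. The order depended on the pseudocount: with 0.1, dmc1 at 11.24 came before hormad1 at 10.26, and with 5 dmc1 at 5.62 came after hormad1, sycp1 and sycp3. Scaling the libraries by median ratios moved the median of all genes by -0.60 and left 7 members higher. spo11 then differed by 1.18 and mlh3 by 1.96, while brip1 differed by -1.72. The share of all genes higher after this scaling was not counted, and the 31.5% holds for the values as deposited. The summed markers of testis somatic cells and sperm tails given above were higher in sperm too, by this rule for 9 of 10 and 7 of 7 markers, and their part in the result was not tested.

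As deposited, sperm exceeded each of the other 9 libraries by this rule for 7 members, against 13.9% of the 18972 genes measured in any library. The other members were mlh3, psmc3ip and brip1. Sperm over the highest other library came to 5833-fold for dmc1, a ratio to the 4 reads of the 16-cell library, 1176-fold for hormad1, 141-fold for sycp1, 75.7-fold for sycp3, 18.1-fold for hsf2bp, 8.63-fold for mnd1 and 4.33-fold for spo11. With median ratio scaling spo11 did not pass: sperm then differed by 1.18 from the oocyte and by 0.77 from 1-cell.

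In the 1-cell embryo against the oocyte, which brackets fertilisation, 5 members could be measured and 0 were called, while 1.06% of 10373 genes were higher and 3.4% lower. Their median difference was -0.59, against -0.30 for all genes. brip1 was 2.09-fold lower at 1-cell (1.98 to 2.21), sycp1 2.43-fold lower (1.92 to 3.10), psmc3ip 3.05-fold lower (1.61 to 6.27) and spo11 1.30-fold lower (1.17 to 1.44), and sycp3 was the higher one. Median ratio scaling moved the median of all genes by 0.68 and turned the sign for spo11, which differed by 0.41 after it and by -0.34 as deposited.

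In the 128-cell embryo against 1-cell, 2 of 8 members measured were higher and 0 lower, where 25.7% of 12336 genes were higher and 2.43% lower. This share is close to that of all genes, and the members' median of 1.1 was close to the 1.13 of all genes. psmc3ip was 55.2-fold higher at 128-cell (31.5 to 107) and mlh3 19.9-fold higher (14.2 to 28.9). Both were under 1 RPKM at 1-cell and entered through the 128-cell library alone. mnd1, 15.8-fold higher (8.21 to 34.7), did not reach 2 on the log2(RPKM + 1) scale, at 1.40, and sycp3 was 3.95-fold lower (3.28 to 4.76) at -1.49. Median ratio scaling moved the median of all genes by -1.14, and the shares of all genes called under it were not counted. Under it 1 member was higher, psmc3ip at 3.07, and 1 lower, sycp3 at -2.95, and sycp1, hsf2bp and mnd1 stayed above 0 while spo11 at -1.29 and brip1 at -1.26 turned below it.

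In the values as deposited, the first step at which members passed the rule was 16-cell against 4-cell. There mlh3 was 9.88-fold (8.72 to 11.2) and psmc3ip 8.15-fold (6.93 to 9.63) higher at 16-cell, 2 of 8 measured. Of all genes 10.7% were higher at this step and 0.587% lower. mnd1 was 5.27-fold higher (3.80 to 7.44) and sycp1 3.05-fold higher (2.56 to 3.64) without passing. The 4-cell library was deeper than the 16-cell library. The median of all genes differed by 0.74 at this step, which median ratio scaling moved by -0.76. Shares of all genes called after that scaling were not counted. Under that scaling, added after the data were seen, 0 members passed at this step, with psmc3ip at 1.67 and mlh3 at 1.59, and spo11 at -1.44 and sycp3 at -1.59 lay below 0. At the step before, 4-cell against 1-cell, sycp3 differed by -1.15 as deposited. Median ratio scaling brought it to -2.00 there, lower by the rule.

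Later steps were small. In 1000-cell against 128-cell, 0 of 8 members were called, against 0.141% of genes higher and 0.00784% lower, with mnd1 3.71-fold higher at 1000-cell (3.29 to 4.21), psmc3ip 1.81-fold (1.70 to 1.93), mlh3 1.61-fold (1.51 to 1.72), hsf2bp 1.32-fold (1.12 to 1.54) and brip1 1.09-fold (1.05 to 1.13). spo11 was 1.45-fold lower at 1000-cell (1.34 to 1.57) and sycp3 1.32-fold lower (1.04 to 1.69), and the interval for sycp1 held 1. In sphere against 1000-cell, a span in which the zygotic genome becomes active, 0 of 8 were called, against 4.06% of genes higher and 0.415% lower. mnd1 was 1.17-fold higher at sphere (1.08 to 1.27), and mlh3 was 1.53-fold (1.43 to 1.63), sycp3 1.54-fold (1.14 to 2.08), brip1 1.34-fold (1.29 to 1.40) and psmc3ip 1.20-fold (1.13 to 1.27) lower. The intervals of the fold held 1 for sycp1, spo11 and hsf2bp.

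Over the whole embryonic span, sphere against 1-cell, 3 of 8 members were higher, where 31.4% of genes were higher and 4.52% lower. These were psmc3ip at 83.5-fold (47.7 to 162), mnd1 at 68.6-fold (36.0 to 150) and mlh3 at 21.0-fold (15.0 to 30.4). All of them were under 1 RPKM at 1-cell and entered through sphere alone. sycp3 was lower, by 8.02-fold (6.25 to 10.4). The median of all genes differed by 1.25 over this span, and median ratio scaling moved it by -1.06. Shares of all genes called after that scaling were not counted here either. Under that scaling, added after the data were seen, psmc3ip at 3.53 and mnd1 at 2.49 were higher and sycp3 at -3.48 lower by the rule, mlh3 at 1.57 no longer passed, and spo11 differed by -1.92 and brip1 by -1.63.

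**Figure D4:**
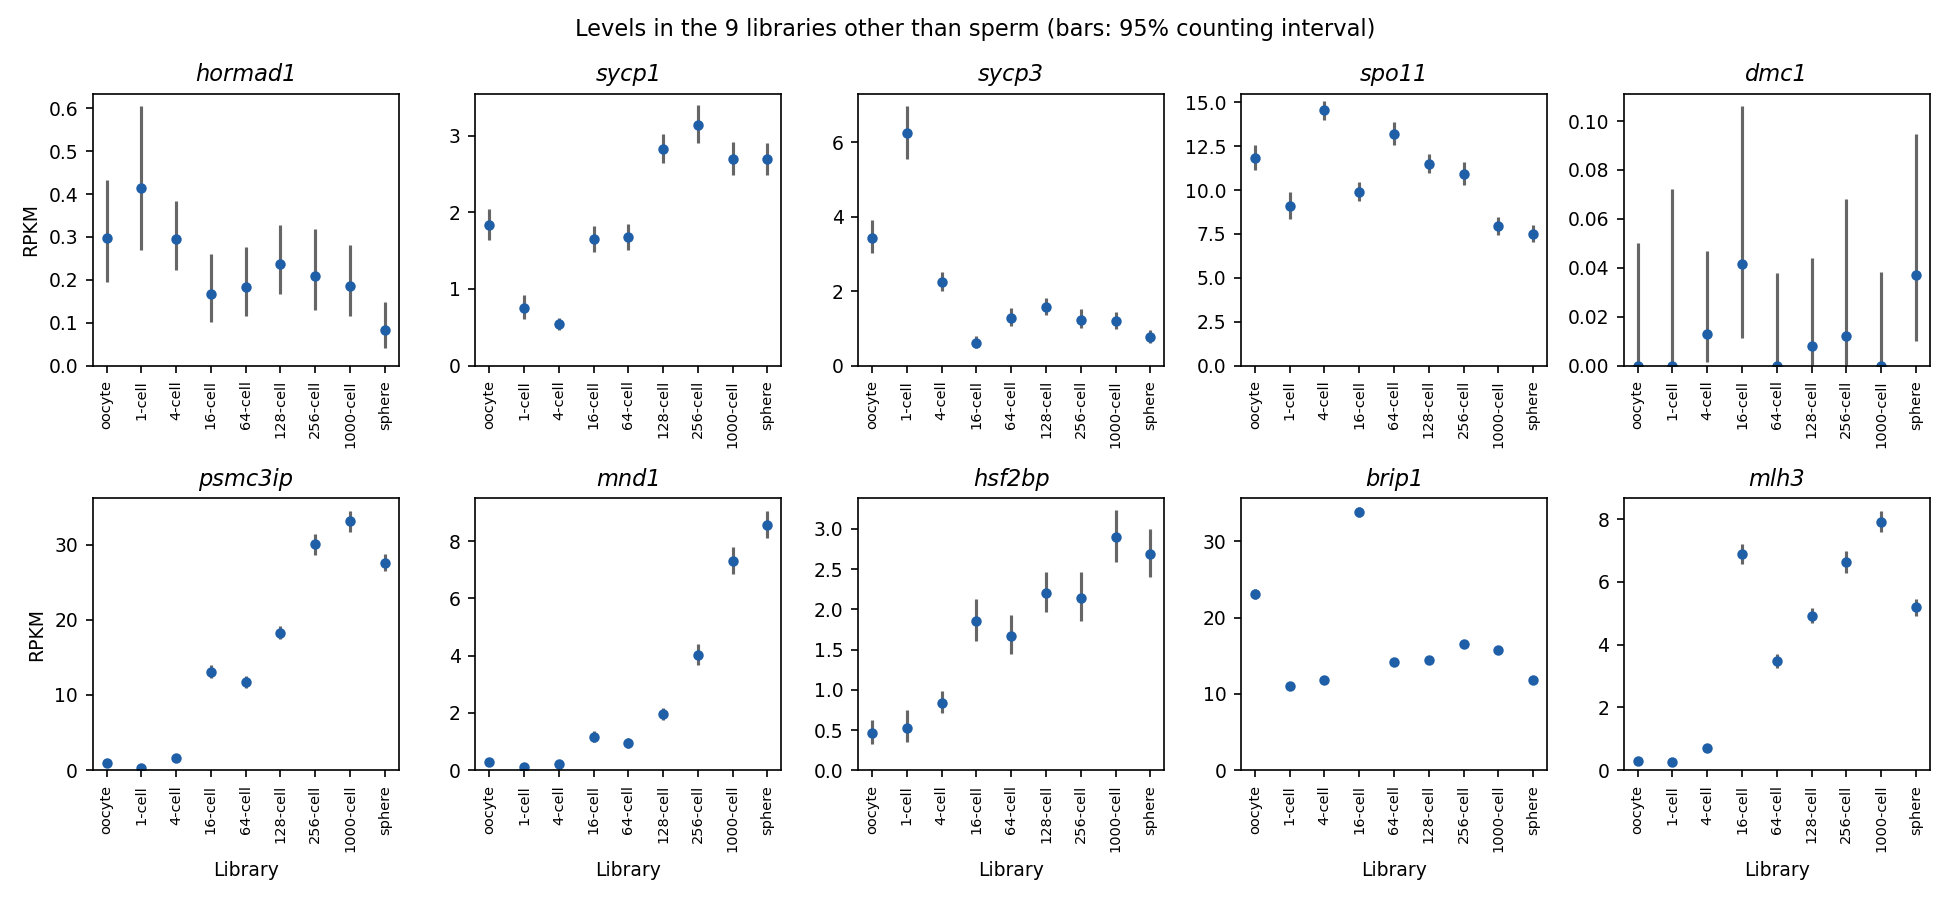
RPKM of each gene in the oocyte and the 8 embryonic libraries, with a linear axis for each gene and 95% counting intervals. psmc3ip, mnd1 and hsf2bp are higher from 16-cell on, sycp3 is highest at 1-cell, brip1 has its highest point at 16-cell and dmc1 lies under 0.05 RPKM throughout.

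A straight line of log2(RPKM + 1) on log2 cell number was fitted with limma over the 7 libraries from 1-cell to 1000-cell, the 1 test in which the stages serve as their own spread. hormad1 and dmc1 were under the limit of 1 RPKM in 2 libraries and were not tested. Of the 8 members tested, 5 rose and 0 fell at a limma p adjusted over all genes by Benjamini-Hochberg, where 52.7% of 12720 genes rose and 9.16% fell, so rising was common. psmc3ip rose by 0.49 per doubling of cells (SE 0.063, adjusted p = 0.0013), mnd1 by 0.28 (SE 0.042, adjusted p = 0.0016) and mlh3 by 0.28 (SE 0.062, adjusted p = 0.005). sycp1 rose by 0.15 (SE 0.034, adjusted p = 0.0068) and hsf2bp by 0.13 (SE 0.029, adjusted p = 0.0053), near the median slope of 0.12 over all genes.

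The slope of sycp3 was -0.14 (SE 0.054, adjusted p = 0.051), that of spo11 -0.02 (95% interval -0.12 to 0.077, adjusted p = 0.69) and that of brip1 0.03 (95% interval -0.095 to 0.16, adjusted p = 0.63). With median ratio scaling, psmc3ip, mnd1 and mlh3 rose, whereas sycp1 at 0.05 (adjusted p = 0.27) and hsf2bp at 0.04 (adjusted p = 0.16) were no longer called. Under that scaling sycp3 fell by 0.27 (adjusted p = 0.017), spo11 by 0.18 (adjusted p = 0.0094) and brip1 by 0.13 (adjusted p = 0.02), and of all genes 27.0% rose and 29.6% fell, 3366 and 3684 of 12447.

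The calls changed when early libraries were left out. Without the 1-cell library the limma fit called 3 members, with mlh3 at an adjusted p of 0.081 and hsf2bp at 0.066, and the slope of sycp3 was -0.03. In that fit 12.4% of all genes rose and 3.54% fell, so fewer were called among all genes too. Without the 16-cell library it called 6, sycp3 among them at -0.15 (adjusted p = 0.0036), where 64.6% of all genes rose and 14.5% fell. Without both the 1-cell and the 4-cell library, an alternative chosen after the data were seen, 0 of 12616 genes were called. Of these, 1933 had an unadjusted limma p under 0.05, among them mnd1 with a slope of 0.36 (unadjusted p = 0.0027) and psmc3ip with 0.26 (unadjusted p = 0.0082). The slope of mnd1 was thus above its 0.28 over 7 libraries, and that of psmc3ip below its 0.49. Over these 5 libraries mlh3 had a slope of 0.06 (SE 0.080), sycp1 0.10 (SE 0.053), hsf2bp 0.08 (SE 0.043), sycp3 0.06 (SE 0.050), spo11 -0.06 (SE 0.058) and brip1 -0.15 (SE 0.078), each with a 95% interval that held 0. sycp1, mnd1 and psmc3ip were called in each of the 7 fits that left out 1 library, sycp1 with an adjusted limma p of up to 0.046. The share of all genes called in each of these 7 fits was not counted, so this is no trait particular to the members.

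**Figure D5:**
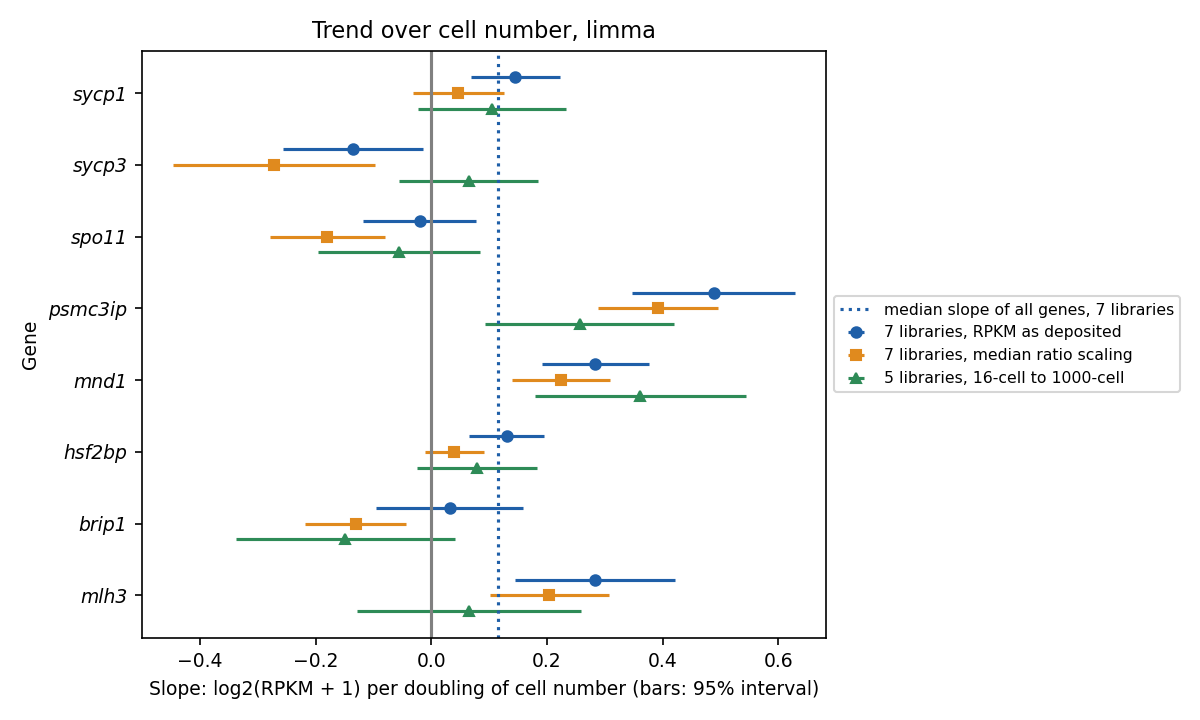
Slopes of log2(RPKM + 1) per doubling of cell number for the 8 tested genes, with 95% limma intervals, for the 7 libraries as deposited, the same after median ratio scaling, and the 5 libraries from 16-cell to 1000-cell. The points of psmc3ip, mnd1, mlh3, sycp1 and hsf2bp lie to the right of 0 in all 3 fits, and for psmc3ip and mnd1 the whole intervals do. In the 5-library fit 0 genes were called. spo11 and brip1 lie near 0 as deposited and below it after scaling, and the dotted line marks the median slope of all genes, 0.12.

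Other genes of the same processes were taken from 6 lists of 91 symbols, of which 63 were found in the table. In sperm against the oocyte, 33 of the 62 measured were higher and 3 lower, with a median of 2.59, against the 31.5% higher, 9.08% lower and median of 1.22 over all genes that hold for each list here. On the list of axis and synaptonemal complex genes, 4 of 5 were higher and 0 lower: the meiotic cohesin subunit smc1b had 232 RPKM in sperm and 0.0387 RPKM in the oocyte, and the cohesin kleisin rad21l1 had 106 RPKM in sperm and 0.471 RPKM in the oocyte. sycp2, an axis partner of sycp3, had 110 RPKM in sperm and 0.846 RPKM in the oocyte, and rec8b was also higher.

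On the list of break formation and processing genes, 7 of 8 were higher and 0 lower. The break-forming factors were among these, ankrd31 with 56.3 RPKM in sperm and 0.0888 RPKM in the oocyte, mei4 with 79.3 and 1.37 RPKM in sperm and oocyte, and rec114 with 30.2 RPKM in sperm and 0.0800 RPKM in the oocyte. On the strand exchange list, 8 of 18 were higher and 0 lower, led by meiob, a meiotic single-strand DNA binding protein, with 77.8 RPKM in sperm and 0.0206 RPKM in the oocyte, and palb2 was also higher. The general replication protein gene rpa1, at 134 RPKM in sperm and 233 RPKM in the oocyte, differed by -0.79.

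On the crossover and mismatch repair list, 6 of 13 were higher and 0 lower. rnf212b, tex11 and msh5, all known for crossover formation in meiosis, had 90.9, 74.0 and 65.1 RPKM in sperm and 0.0433, 0.0619 and 0.0286 RPKM in the oocyte. exo1 had 30.7 RPKM in sperm and 101 RPKM in the oocyte, and pms2 had 9.71 RPKM in sperm and 39.7 RPKM in the oocyte, both inside the rule. On the Fanconi anaemia list, to which brip1 belongs by function, 2 of 11 were higher, fance and slx4, and 2 lower, fancl and fancg, with a median of -0.94. On the list of telomere attachment and meiotic entry, 6 of 7 were higher, among them terb1 with 94.2 RPKM in sperm and 0.0105 RPKM in the oocyte, and 1 was lower, the cyclin gene ccna1 with 30.0 RPKM in sperm and 1561 RPKM in the oocyte.

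In the limma trend over cell number, 24 of 48 genes tested on these lists rose and 10 fell, with a median slope of 0.14 against 0.12 for all genes. Of all genes tested 52.7% rose and 9.16% fell, so the share rising on these lists was close to that of all genes. By list the counts of rising and falling genes were 1 and 0 of 1 for the axis, 5 and 0 of 6 for break formation, 8 and 5 of 17 for strand exchange, 3 and 1 of 10 for crossovers, 4 and 3 of 10 for the Fanconi pathway and 3 and 1 of 4 for telomere attachment. The gene that rose on the axis list was rad21l1, at 0.14 (limma, adjusted p = 0.034).

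Within sperm the members stood in the order hormad1, sycp3, sycp1, dmc1, mnd1, spo11, hsf2bp, psmc3ip, brip1 and mlh3, and no neighbours had overlapping intervals. In the oocyte the order was brip1, spo11, sycp3, sycp1, psmc3ip, hsf2bp, mnd1, hormad1, mlh3 and dmc1, with overlapping intervals between neighbours from hsf2bp to mlh3. In the 4 libraries from 128-cell to sphere, psmc3ip was first and brip1 next, ahead of spo11, mlh3 and mnd1, and hormad1 and dmc1 closed the order. Thus the genes that led in sperm, those of the axis and dmc1, were not those that led in the embryos.

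Across the 9 libraries other than sperm, some members had much the same course, as Pearson's r of log2(RPKM + 1) between genes that share these libraries and their scaling. It was 0.98 for psmc3ip and hsf2bp, 0.97 for mlh3 and psmc3ip, and 0.96 for mlh3 and hsf2bp. These courses were common: among 7450 genes compared, 2673 had an r above 0.9 with psmc3ip, 2706 with mlh3 and 2537 with hsf2bp. The nearest gene to psmc3ip was MCUR1, at 0.9994, followed by SDF4 and URI1. For mlh3 the nearest were si:dkey-60a16.1, si:ch211-67f13.7 and ASMTL, and for hsf2bp si:dkey-23a23.2, GINS1 and grin2ab.

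The courses of the other members had fewer likenesses. spo11 had 3 genes above 0.9, MLF2 at 0.94, THOC5 and SDHB, and brip1 had 22, led by hbegfa at 0.95, EIF2B3 and MVK. sycp1 had 58, led by TSFM at 0.97, iqce and SRI, and sycp3 had 150, led by si:dkey-9c18.3 at 0.99, ERLIN1 and NPC2. mnd1 had 335, led by TM9SF3 at 0.98, SNAP29 and RPEL1.

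Reads of overlapping genes may have been counted to a member, since the strand setting is not given in the sources used here. In the RefSeq annotation of another assembly, GRCz12tu, sycp1, hormad1, mnd1, psmc3ip, hsf2bp and brip1 overlap at least 1 other gene, and sycp3, dmc1, spo11 and mlh3 overlap none. mlx, which overlaps psmc3ip, had 9.32 RPKM in sperm, 35.8 in the oocyte, 31.9 at 1-cell and 19.7 at 4-cell, then 11.8 at 16-cell, 15.0 at 64-cell and 14.3 at 128-cell, and finally 16.3 at 256-cell and 13.7 at 1000-cell, before 8.29 at sphere. It was highest in the oocyte and at 1-cell, where psmc3ip was lowest, while both were higher at 256-cell than at 128-cell and lower at sphere than at 1000-cell. tmem154, which overlaps mnd1, ran between 0.0617 RPKM at 1-cell and 1.18 RPKM in sperm.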

How the data were processed

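Per the labels' protocols, TRIzol RNA went through the TruSeq v2 kit and a HiSeq2000 run of single 50 bp reads. The authors deposited 1 table of RPKM values for 10 libraries. TopHat2 2.0.9 and the build Zv9 are listed in the submitters' processing notes; counting tool, annotation and strand setting: not given in the sources used here.

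Whole reads, gene lengths and library totals were worked back from the RPKM values: 26492 of 26495 genes above 0 in at least 2 libraries were recovered within 0.02 reads. Intervals of a fold are exact 95% Clopper-Pearson ones from these reads. A library with 0 reads was set at 3 reads, and the lower end of the interval can lie below the fold so given. Differences of log2(RPKM + 1), with a pseudocount of 1, were counted at 2 or more where either library had 1 RPKM or more, with no p-value because each stage is 1 library. The trend used limma 3.58.1 (lmFit, eBayes with trend, 5 residual degrees of freedom) in genes with at least 1 RPKM in 2 of 7 libraries, with calls at an adjusted p (Benjamini-Hochberg) under 0.05. Its error holds departures from the line as well as differences between libraries. Whether the libraries came from separate clutches or animals is not given, so its p-values measure only the spread between these samples. Both procedures were tested on simulated data, with a capped spread around the line for the trend. The simulations held no shift shared by the genes of a library, such as that at 1-cell and 4-cell. They therefore cannot show how the procedures behave under such a shift.

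The members and lists were chosen with earlier results of these data known. All 10 members are named. On each list up to 3 genes past the size rule with the largest difference between sperm and oocyte, and up to 2 of the highest in the oocyte, were open to naming, as were the 3 genes most like each member at 1 RPKM or more in 3 of the 9 other libraries, from genes of at least 5 RPKM in 1 of them. mlx and tmem154 are named as overlapping genes. Some related genes are not reported here. rec8b and fancl fall outside the rule and were chosen after their values were seen. Symbols came from a name table, with 20901 genes named. Alternatives were pseudocounts of 0.1 and 5, no filter or a limit of 5 RPKM, median ratio scaling, another library as the one compared with, the rank of the stage in place of cell number, and leaving out each library. Promoter motifs and sequences were not used here.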

Additional observations from a re-analysis of the deposited data

How the results depend on the processing

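With 1 library per stage and counting intervals only, differences between stages can be read for these libraries and not for the stages at large; low members (hormad1 and dmc1 outside sperm) rest on 0 to 56 reads. In sperm against the oocyte, 7 to 9 members were higher under every alternative run. For comparisons of 2 stages, shares of all genes were counted under the main settings only. For 128-cell against 1-cell, 1 member was called in place of 2 with a pseudocount of 5 and at a limit of 5 RPKM. Against the 4-cell library 1 was called as well. In each of these mlh3 was the member no longer called. Fewer members were measured at that limit, and mlh3, with 4.92 RPKM at 128-cell, was not among them. A pseudocount of 0.1 went the other way, and mnd1 was called as well. With median ratio scaling 1 was higher and 1 lower, and 0 were called for 16-cell against 4-cell in place of 2. For the trend, 2 members were called at a limit of 5 RPKM, where only 4 were tested. Of the 9108 genes tested at that limit, 4698 rose and 1057 fell. Without the 1-cell and 4-cell libraries 0 members and 0 genes were called. Leaving out 1 library in turn gave 3 to 6 members. Among all genes those fits ran from 1567 rising and 448 falling (without 1-cell) to 8093 and 1816 (without 16-cell). The slope of brip1 turned to -0.13 with median ratio scaling. Of the members' other slopes refitted under the alternatives, 89 kept direction and call, 4 became called, 9 were no longer called and 5, not called in either fit, turned in sign: spo11 to 0.02 without the 1000-cell and 0.0004 without the 4-cell library, brip1 to -0.02 without the 1-cell library, and brip1 to -0.15 and sycp3 to 0.06 without the 1-cell and 4-cell libraries. The members' differences between stages under the alternatives were set against the distance from the middle of the log2 counting interval to its end. Of these differences, 128 shifted from the main value by no more than that distance. The other 102 shifted further or had an interval without an upper limit. Alternatives that changed only the filter on low values could not move a difference or a slope. Such differences with an upper limit are among the 128, so that number overstates the stability. Of the counts of members, 115 stayed the same or nearly so and 20 moved. Dropping the filter could not change a count between 2 stages, because members under 1 RPKM in both cannot differ by 2. No paired analysis was possible because each stage holds 1 library, so that the groups share only the number 1.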
